A study of Mus musculus with 10 samples.

Results

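The cytochrome P450 genes of families 1 to 3 encode the haem enzymes of the liver endoplasmic reticulum that oxidise drugs, pollutants, steroids, bile acids and fatty acids. The genes were taken from the array annotation as every non-control probe whose gene name begins with Cyp1, Cyp2 or Cyp3 followed by a subfamily letter and a number. This gave 66 probes for 43 genes in 14 subfamilies. Of these genes, 40 passed the filter on dim probes and were among the 15809 genes tested. The largest subfamilies were Cyp2c with 11 genes, Cyp3a with 6, and Cyp2d and Cyp2j with 5 each. Symbols were brought up to date through RefSeq, so that the gene the array calls Cyp2c44 is given as Cyp2c23 and Cyp3a41 as Cyp3a41a.

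Each sample of total liver RNA was read on an Agilent mouse array of its own, in the single dye Cy3. The KO group comprised 5 arrays of livers from 1-year-old C57BL/6 mice lacking the nuclear orphan receptor TAK1/TR4, which is encoded by Nr2c2. The WT group comprised 5 arrays of livers from C57BL/6 wild-type mice of the same age. The labels give no sex, diet or treatment, and do not say which part of Nr2c2 was removed or whether each array holds a separate mouse, so p-values measure only the spread between these samples. As to sex, the Y-linked genes Uty, Eif2s3y, Ddx3y and Kdm5d each had a probe above background on every one of the 10 arrays, and no probe of Xist was above it on more than 2.

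A level is given throughout as log2 signal relative to the array's own 75th percentile, and is comparable between arrays but not between probes. A difference is KO minus WT on that scale with the standard error of the limma fit, and a gene is said to have risen or fallen when its limma p-value, adjusted by Benjamini and Hochberg over all 15809 genes, was under 0.05. Exact permutation tests of 5 against 5 arrays were two-sided and could not give a p below 0.0079. Of the 4 slides, slide 2 held KO1 to KO3 with WT5, slide 1 held the other 4 WT arrays, and KO4 and KO5 each lay on a slide with no other array of the study, that of KO4 scanned on another day. Slide 2 was the one slide with both groups, and differences within it rest on WT5 as the single WT array.

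The targeted gene was checked first. The 2 probes named Nr2c2 were above background on all 10 arrays, with differences of 0.36 ± 0.13 and 0.44 ± 0.11, and the second of these passed as higher (limma adjusted p = 0.0428 over all probes). Both match the plus strand. Another probe at the locus (chromosome 6, 92237812 to 92237871, mm7, minus strand), described in the files as an Nr2c2 cDNA, was above background on 0 KO arrays and 5 WT arrays. Its level was -7.10, -6.38, -6.04, -5.70 and -7.21 on KO1 to KO5, against -1.62, -2.44, -2.21, -2.45 and -2.39 on WT1 to WT5. Whether any of the 3 probes lies in the deleted part was not determined.

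The arrays carried the transcripts of liver. All 8 hepatocyte markers were tested and 0 rose or fell (1 higher and 1 lower at an unadjusted p under 0.05), and their summed level ranged from 1448 to 1810 on KO arrays and from 1537 to 1761 on WT arrays, in multiples of the 75th percentile. Of 8 Kupffer cell markers, Cd163 rose (2 higher and 0 lower at an unadjusted p under 0.05), and of 8 sinusoidal endothelial markers, Flt4 rose (6 higher and 0 lower). The summed endothelial level was 25.9 to 42.9 on KO arrays and 17.1 to 24.9 on WT arrays, without overlap. Of all genes, 4.19% had every KO array above every WT array. The sum weighs bright probes most, and the brightest was Clec4g (0.58 ± 0.18, limma adjusted p = 0.0879). Of the 8 genes, 7 had a positive difference, and Lyve1 a negative one (-0.51 ± 0.35). The Kupffer sums overlapped (37.1 to 99.97 on KO arrays and 36.1 to 87.8 on WT arrays). Of 8 pericentral hepatocyte markers Rhbg fell, with its WT5 spot left out of the fit (0 higher and 2 lower at an unadjusted p under 0.05), and of 8 periportal markers 0 rose or fell (1 higher at an unadjusted p under 0.05). Of 6 cholangiocyte, 6 stellate cell, 4 lymphocyte and 1 pancreatic marker tested, 0 rose or fell (1 stellate cell marker higher at an unadjusted p under 0.05). The adipocyte marker Cfd fell, while Adipoq, Lep, Retn and Plin1 were not above background often enough to be tested. Fabp2, an intestinal marker, fell, with limma adjusted p from 0.00371 to 0.0431 for these 5 marker genes. Kap, a kidney marker, was above background on 5 KO arrays and 2 WT arrays and passed the filter only through the KO arrays, so no call is drawn from it. The other 2 markers of kidney and of intestine were not above background often enough to be tested. In bulk RNA, fewer cells of a type and less RNA per cell cannot be told apart, and the part of these markers in the P450 values was not tested. The calls of Cd163, Flt4, Rhbg and Fabp2 each ended without any 1 of 5 to 9 of the arrays.

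P450 enzymes of these families insert 1 oxygen atom of O2 into their substrate, with electrons passed to them by the reductase Por and by cytochrome b5. Their genes lie in clusters of near copies. Many are switched on by ligand-activated receptors, Cyp1a genes by AHR, Cyp2b10 by CAR (Nr1i3) and Cyp3a genes by PXR (Nr1i2). In mice several are also set by the sex-specific rhythm of growth hormone, and most are strongest in the hepatocytes around the central vein. TAK1/TR4 is itself a nuclear receptor that binds direct repeats of the half-site AGGTCA.

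Cyp2c70 and Cyp2c40 rose on KO arrays, and Cyp2a4 and Cyp2a5 fell. These 2 of 40 members in each direction stand beside 2.44% of all genes that rose and 3.48% that fell, and the 4 in all beside 5.91%. At an unadjusted p under 0.05 the members numbered 16 of 40 (40.0%), 6 higher and 10 lower. Of all genes 23.7% passed, 11.6% higher and 12.1% lower. Near copies among the members count separately in these numbers. KO arrays lay entirely above WT arrays for 4 of 40 members, where 4.19% of all genes did, and entirely below them for 3 of 40, where 5.43% did. The difference was negative for 29 of 40 members (72.5%), where 48.1% of all genes were negative, and its median was -0.23 over the members and 0.01 over all genes. Without KO2, 24 members were negative, the median was -0.10, and 2 members passed in each direction, where 2.90% of all genes rose and 3.88% fell. With slide as a random block 4 members rose and 3 fell, where 4.07% of all genes rose and 5.10% fell. Over probes, 3 of the 55 kept member probes rose and 5 fell, where 2.06% of all probes rose and 2.98% fell, and 1 of the 5 is a Cyp2b13 probe that passed the filter only through its WT arrays.

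**Figure D1:**
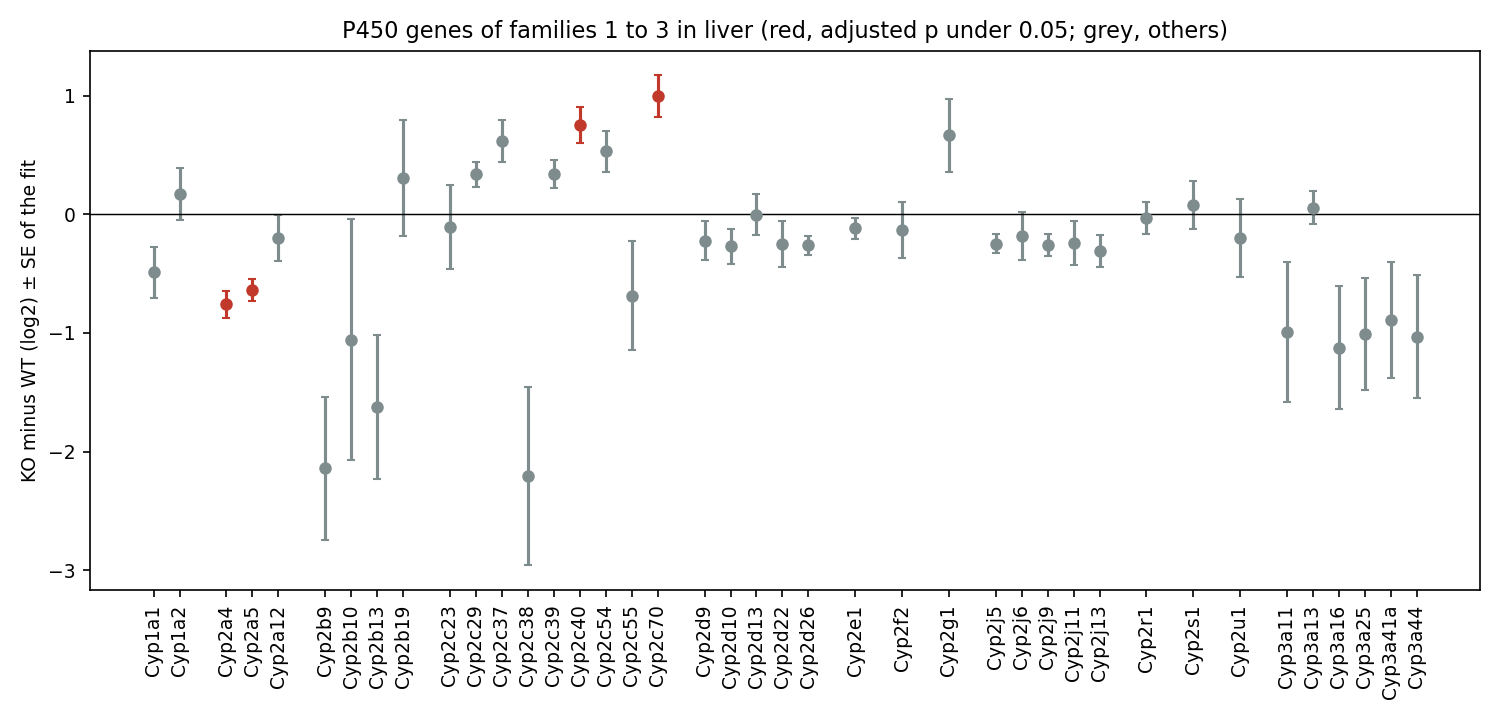
Difference between KO and WT arrays for each of the 40 tested P450 genes, ordered by subfamily, on the log2 scale with the standard error of the fit. The 4 genes in red had an adjusted p under 0.05: Cyp2a4 and Cyp2a5 lie below 0, Cyp2c40 and Cyp2c70 above it, and the longest error bars belong to Cyp2b10, Cyp2c38, Cyp2b9 and Cyp2b13.

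Cyp2a5, the coumarin hydroxylase of mouse liver, and Cyp2a4, a steroid hydroxylase better expressed in female livers, were the members with the smallest p. The level of Cyp2a4 was 5.50, 5.92, 5.94, 5.55 and 5.82 on KO1 to KO5, against 6.32, 6.49, 6.46, 6.63 and 6.63 on WT1 to WT5. The level of Cyp2a5 was 6.87, 7.19, 7.29, 7.05 and 7.06 on KO1 to KO5, against 7.63, 7.70, 7.61, 7.87 and 7.82 on WT1 to WT5. For both genes every KO array lay below every WT array, with KO1 the lowest. Cyp2a4 averaged 5.75 ± 0.21 on KO arrays and 6.51 ± 0.13 on WT arrays (SD, n = 5 each), and was 1.69-fold lower (difference -0.76 ± 0.11, limma adjusted p = 0.00548, exact permutation p = 0.0079). Cyp2a5 averaged 7.09 ± 0.16 on KO arrays and 7.72 ± 0.12 on WT arrays (SD, n = 5 each), and was 1.55-fold lower (-0.64 ± 0.09, limma adjusted p = 0.00575, exact permutation p = 0.0079). Within slide 2 the differences were -0.84 for Cyp2a4 and -0.71 for Cyp2a5, larger in size than over all arrays, though neither passed there (limma adjusted p = 0.999 for both, where over the 26 alternatives it ran from 0.00206 to 0.999 for Cyp2a4 and from 0.00284 to 0.999 for Cyp2a5). Cyp2a12, the other gene of the subfamily, differed by -0.20 ± 0.20 (limma adjusted p = 0.577) and by -0.01 without KO2.

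**Figure D2:**
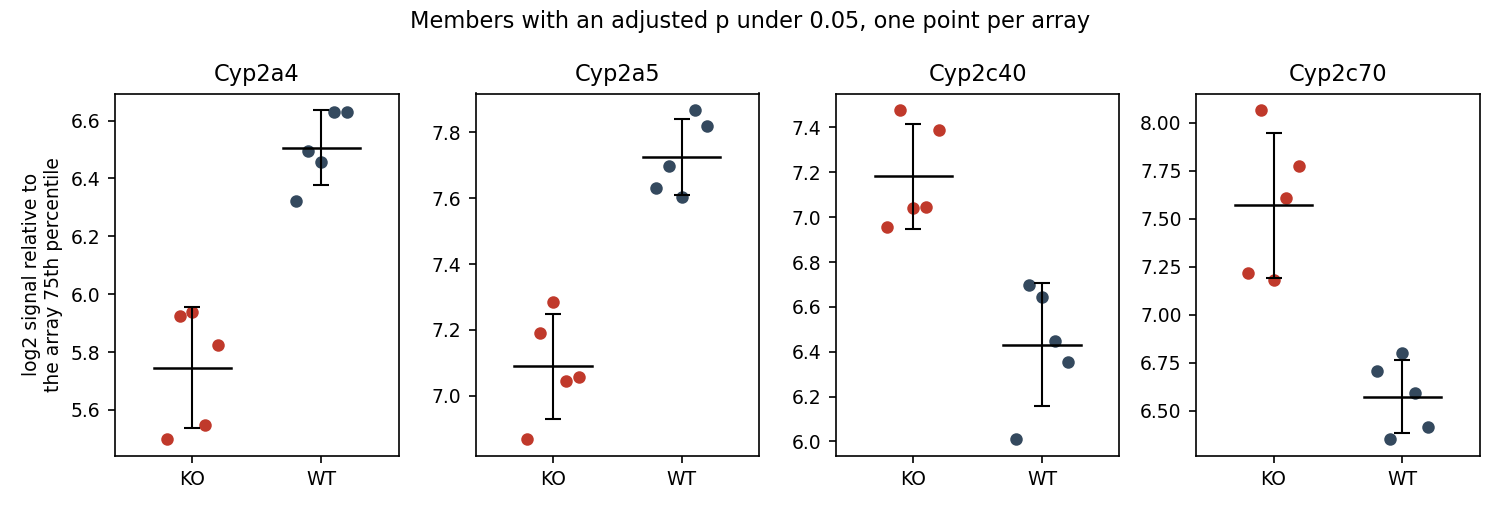
Level of the 4 P450 genes that rose or fell, as log2 signal relative to the 75th percentile, with 1 point per array, KO on the left and WT on the right of each panel. Horizontal lines are group means and bars are SDs (n = 5). KO and WT arrays do not overlap in any panel.

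Cyp2a4 and Cyp2a5 are near copies, so the sequences behind their values matter. The brightest Cyp2a4 probe (chr7:23212199-23212258, mm7, plus strand) and the brightest Cyp2a5 probe (chr7:23212221-23212279, mm7, plus strand) match each other over 38 bases with 3 differences. The 30 bases of that overlap which hold all 3 differences, in capitals, are shown because a transcript of one gene could bind the probe of the other.

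Cyp2a4 probe: aggacacTTCgtagacttgcagaggatatt

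Cyp2a5 probe: aggacacAGAgtagacttgcagaggatatt

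The files place these 2 probes and the second probe of each gene at a single locus (chr7:23210886-23212279, mm7). Cross-hybridisation among the 4 probes was not tested. A second Cyp2a4 probe spans an intron (chr7:23210886-23211951, mm7, plus strand) and shares no run of 20 or more bases with a Cyp2a5 probe. Probes were compared only with probes and not with transcripts, so whether this second probe also binds Cyp2a5 transcripts was not tested. That probe gave -1.06 ± 0.15 (limma adjusted p = 0.00478 over all probes), with levels of 4.43 to 4.94 on KO arrays and 5.41 to 6.21 on WT arrays. The second Cyp2a5 probe, which shares a run of exactly 20 bases with the brightest Cyp2a4 probe, gave -0.81 ± 0.12 (limma adjusted p = 0.00688 over all probes). All 4 probes of the pair were therefore lower on KO arrays, but whether they read separate transcripts was not tested. Over all members, 2120 pairs of probes of different genes were compared, and these 2 pairs were the only ones with a shared run of 20 bases.

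The promoters of the pair are near copies too. Over the 250 bases before the start of each gene in RefSeq (GRCm38.p6), Cyp2a4 (chr7:26306942-26307191, plus strand) and Cyp2a5 (chr7:26835089-26835338, plus strand) match at 245 bases (98.0%). Capitals mark the 4 bases that differ and the 1 base at one end of each window that has no partner in the other.

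Cyp2a4 promoter: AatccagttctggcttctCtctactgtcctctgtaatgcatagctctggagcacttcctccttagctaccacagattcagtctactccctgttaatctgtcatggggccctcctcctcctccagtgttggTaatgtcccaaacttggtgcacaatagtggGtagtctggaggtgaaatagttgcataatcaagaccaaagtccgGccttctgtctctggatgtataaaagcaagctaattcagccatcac

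Cyp2a5 promoter: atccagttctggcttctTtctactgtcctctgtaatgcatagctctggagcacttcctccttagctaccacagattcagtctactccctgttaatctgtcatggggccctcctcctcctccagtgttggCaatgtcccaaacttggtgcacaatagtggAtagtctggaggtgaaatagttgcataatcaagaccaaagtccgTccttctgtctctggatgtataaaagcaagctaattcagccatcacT

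Both windows hold the letters TATAAA, 28 bases before the start in Cyp2a4 and 29 in Cyp2a5, and the letters GTTAAT 160 and 161 bases before it. Neither holds AGGTCA on either strand.

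The Cyp2c genes, whose enzymes epoxidise arachidonic acid and oxidise retinoids and drugs, had differences from -2.21 to 1.00, and of the 9 tested 2 rose and 0 fell (6 higher and 1 lower at an unadjusted p under 0.05). Cyp2c70, the enzyme that makes muricholic acids in the mouse, had a level of 7.22, 8.07, 7.18, 7.61 and 7.78 on KO1 to KO5, against 6.71, 6.35, 6.80, 6.59 and 6.42 on WT1 to WT5. Cyp2c40, an arachidonic acid hydroxylase better expressed in female livers, had a level of 6.95, 7.48, 7.04, 7.05 and 7.39 on KO1 to KO5, against 6.01, 6.70, 6.65, 6.45 and 6.35 on WT1 to WT5. For both genes every KO array lay above every WT array, with KO2 the highest. Cyp2c70 averaged 7.57 ± 0.38 on KO arrays and 6.57 ± 0.19 on WT arrays (SD, n = 5 each), and was 1.99-fold higher (difference 1.00 ± 0.18, limma adjusted p = 0.014, exact permutation p = 0.0079). Cyp2c40 averaged 7.18 ± 0.24 on KO arrays and 6.43 ± 0.27 on WT arrays (SD, n = 5 each), and was 1.68-fold higher (0.75 ± 0.15, limma adjusted p = 0.0236, exact permutation p = 0.0079). Without KO2 both genes passed, with differences of 0.87 for Cyp2c70 and 0.68 for Cyp2c40. Within slide 2 the differences were 1.07 and 0.80 (limma adjusted p = 0.999 for both, where over the 26 alternatives it ran from 0.00547 to 0.999 for Cyp2c70 and from 0.00825 to 0.999 for Cyp2c40). Cyp2c40 did not pass without KO5, WT4 or WT5, with a limma adjusted p of up to 0.0539.

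The other tested Cyp2c genes from Cyp2c29 to Cyp2c70 on chromosome 19 were, with 1 exception, also higher on average. Their differences were 0.34 ± 0.10 for Cyp2c29, 0.34 ± 0.12 for Cyp2c39, 0.61 ± 0.18 for Cyp2c37 and 0.53 ± 0.17 for Cyp2c54, and none of these 4 passed (limma adjusted p from 0.0736 to 0.121). In the order of their probes along the chromosome (mm7), Cyp2c29, Cyp2c39, Cyp2c40, Cyp2c37, Cyp2c54 and Cyp2c70 were positive. Each of the 6 had an unadjusted p under 0.05, where 11.6% of all genes were higher at that level. Cyp2c38, which lies between Cyp2c29 and Cyp2c39, was the exception. Cyp2c55 before them and Cyp2c23 after them were negative, at -0.69 ± 0.46 and -0.11 ± 0.36. Cyp2c50 and Cyp2c69 were not on the array, and whether the Cyp2c40 probes bind transcripts of other Cyp2c genes was not tested.

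**Figure D3:**
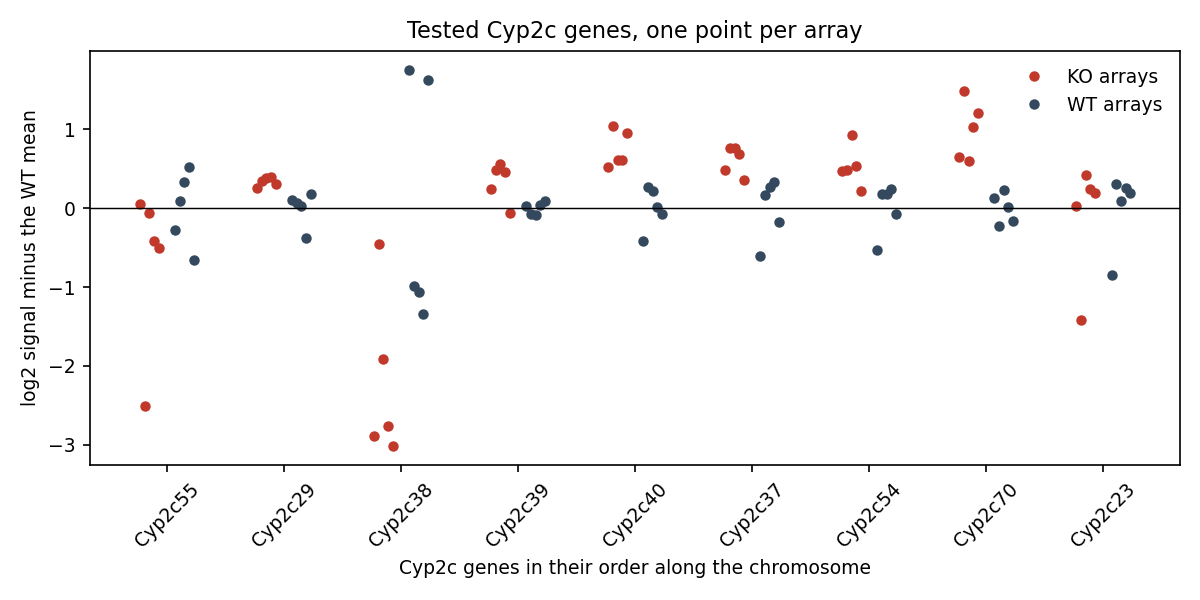
Level of the 9 tested Cyp2c genes on every array after subtracting the mean of the WT arrays, on the log2 scale, in the order of their probes along chromosome 19. KO arrays (red) are left of WT arrays (dark) for each gene. From Cyp2c29 to Cyp2c70 the KO points lie mostly above the WT points except at Cyp2c38, where they lie mostly below.

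Cyp2c29, a phenobarbital-inducible epoxygenase, had a level of 7.22, 7.31, 7.35, 7.36 and 7.27 on KO1 to KO5, against 7.06, 7.03, 6.995, 6.58 and 7.15 on WT1 to WT5. KO and WT arrays did not overlap, and the KO arrays spanned a narrow range (mean 7.30 ± 0.06 on KO arrays and 6.96 ± 0.22 on WT arrays, SD, n = 5 each). The gene did not pass in the fit of all genes (limma adjusted p = 0.0888, exact permutation p = 0.0079), and its difference within slide 2 was 0.14. Cyp2c37 did not overlap between the groups either, at 6.14 to 6.54 on KO arrays and 5.18 to 6.11 on WT arrays, and both of its probes gave a positive difference.

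Cyp2c38 had the largest negative difference of all members, -2.21 ± 0.75, and did not pass (limma adjusted p = 0.116, exact permutation p = 0.04). Its level was -3.02, -0.59, -2.04, -2.90 and -3.16 on KO1 to KO5, against 1.62, -1.12, -1.20, -1.48 and 1.49 on WT1 to WT5. KO2 stood above the other KO arrays and above WT2, WT3 and WT4, so that the groups overlapped. WT1 and WT5 stood well above the other WT arrays. A second probe of the gene, which spans introns, read -0.57, -0.65, -1.25, -1.20 and -0.90 on WT1 to WT5 and so did not set WT1 and WT5 apart in this way. It differed by -1.27 ± 0.39 (limma adjusted p = 0.0947 over all probes). The promoter windows of Cyp2c38 and Cyp2c39 match at 80.4% of bases and those of Cyp2c38 and Cyp2c29 at 74.8%, although the differences of Cyp2c39 and Cyp2c29 were positive.

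The probes of Cyp2c40 and Cyp2c54 cover related stretches of their transcripts and differ at more bases than the Cyp2a probes. The probes compared here are a second Cyp2c40 probe (chr19:39680672-39696310, mm7, minus strand) and the Cyp2c54 probe (chr19:39941403-39963984, mm7, minus strand), both of which span introns. They are shown over their 46 shared positions, with the 8 differences in capitals.

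Cyp2c40 probe: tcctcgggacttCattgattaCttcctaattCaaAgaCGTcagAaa

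Cyp2c54 probe: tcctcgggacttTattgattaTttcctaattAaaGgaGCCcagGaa

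This second Cyp2c40 probe rose on KO arrays, with 0.98 ± 0.15 (limma adjusted p = 0.00728 over all probes), where the Cyp2c54 probe gave 0.53 ± 0.17 (limma adjusted p = 0.103 over all probes).

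The promoter of Cyp2c70 (chr19:40187287-40187536, GRCm38.p6, minus strand) is shown because it belongs to the member that rose most and holds the half-site letters of TAK1/TR4. Capitals mark AGGTCA, 74 bases before the start, and TATAAA as it reads on the other strand.

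Cyp2c70 promoter: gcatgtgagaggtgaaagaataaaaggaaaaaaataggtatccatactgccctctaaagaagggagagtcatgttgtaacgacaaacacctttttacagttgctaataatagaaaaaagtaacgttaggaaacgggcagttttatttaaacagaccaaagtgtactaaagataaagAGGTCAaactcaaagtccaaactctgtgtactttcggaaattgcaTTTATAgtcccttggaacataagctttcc

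Promoter windows were found in RefSeq for 34 of the 40 tested members, 37 windows in all. AGGTCA, sought on both strands, lay in 12 of the 37 (32.4%), where 14.0% of 32851 promoters of all genes hold it. TATAAA lay in 18 (48.6%, against 12.4% of all promoters) and GTTAAT in 4 (10.8%, against 6.43%). CAAAGG lay in 16 (43.2%, against 17.6%) and GCGTG in 5 (13.5%, against 28.2%). Direct repeats of AGGTCA spaced by 1 or by 4 bases lay in 0 member windows, and in 0.0335% and 0.0152% of all promoters. Near copies such as the Cyp2a and Cyp2b pairs count separately here, and a match of letters is not a binding site. Of the 4 genes that rose or fell, only Cyp2c70 had AGGTCA in its window, while Cyp2a4, Cyp2a5 and Cyp2c40 had GTTAAT.

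In the Cyp2b genes, differences ran from -2.14 to 0.30, and levels were uneven between arrays. Cyp2b9, better expressed in female livers, had a level of 2.34, 2.05, 3.08, 1.03 and 0.02 on KO1 to KO5, against 5.26, 3.20, 3.38, 4.30 and 3.08 on WT1 to WT5. Its neighbour Cyp2b13, also better expressed in female livers, had a level of 0.92, -0.36, 1.92, 0.10 and -1.10 on KO1 to KO5, against 3.47, 1.45, 1.29, 2.28 and 1.11 on WT1 to WT5. Both genes had KO5 as the lowest array and KO3 as the highest KO array, and both had WT1 highest and WT4 next. KO3 lay just above the lowest WT array for Cyp2b9, and above 3 WT arrays for Cyp2b13. Cyp2b9 was 4.41-fold lower (-2.14 ± 0.60, limma adjusted p = 0.0687, exact permutation p = 0.016) and Cyp2b13 3.08-fold lower (-1.62 ± 0.61, limma adjusted p = 0.148, exact permutation p = 0.056), and neither passed. Without KO3, Cyp2b9 passed. Within slide 2 the differences were -0.59 for Cyp2b9 and -0.28 for Cyp2b13.

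Each of these genes had a second kept probe. For Cyp2b9 the second probe gave -2.19 ± 0.61 (limma adjusted p = 0.0676 over all probes), close to the first. For Cyp2b13 the second probe was dim, above background on 2 KO arrays and 5 WT arrays, and it passed the filter only through the WT arrays, so no call is drawn from it. Its level was -4.60, -3.16, -5.15, -7.08 and -5.17 on KO1 to KO5, against -0.39, -3.13, -2.03, -0.14 and -2.49 on WT1 to WT5, so that every KO array lay below every WT array, with KO2 and WT2 nearly equal. With each KO array counted at no less than the lowest signal well above background on it, the bound for this probe was 6.22-fold. The brighter probe, above background on every array, gave 3.08-fold. Low KO values follow in part from how the dim probe passed the filter. Neither its fold nor its lack of overlap is therefore read as a result for Cyp2b13. The 2 probes of Cyp2b13 differed by 1.77 in their KO minus WT difference, the widest gap among the 14 members with more than 1 kept probe. The median gap was 0.10, and 13 of the 14 had the same sign on every probe, Cyp2d10 being the exception.

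**Figure D4:**
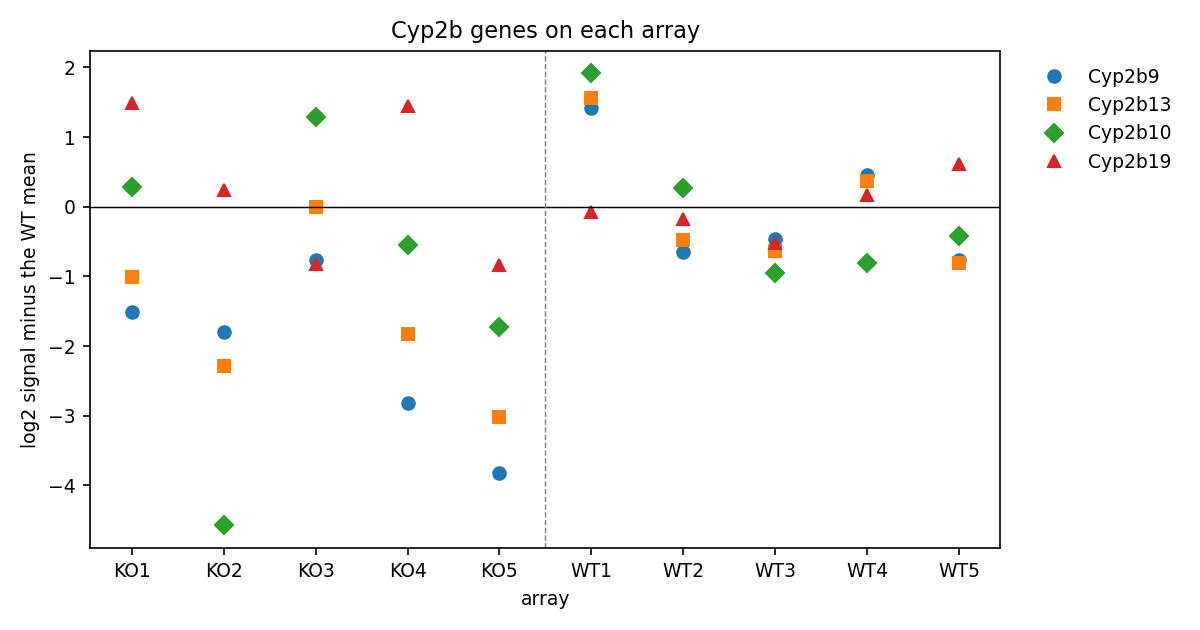
Level of the 4 tested Cyp2b genes on each array, KO arrays left of the dashed line and WT arrays right of it, after subtracting the WT mean of each gene, on the log2 scale. Cyp2b9 and Cyp2b13 are both highest on WT1 and lowest on KO5, and Cyp2b10 is far below the rest on KO2.

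The promoter windows of Cyp2b9 (chr7:26173159-26173408, GRCm38.p6, plus strand) and Cyp2b13 (chr7:26061245-26061494, GRCm38.p6, plus strand) were the most alike of all members, matching at 248 of 250 bases (99.2%). They are shown because of this match, and capitals mark the 2 bases that differ. The brightest probes of the pair varied together over the arrays. On the dim second Cyp2b13 probe, by contrast, KO4 was the lowest array and KO2 the highest KO array. Whether a Cyp2b13 probe binds Cyp2b9 transcripts was not tested, and neither was any part of the promoters in these values.

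Cyp2b9 promoter: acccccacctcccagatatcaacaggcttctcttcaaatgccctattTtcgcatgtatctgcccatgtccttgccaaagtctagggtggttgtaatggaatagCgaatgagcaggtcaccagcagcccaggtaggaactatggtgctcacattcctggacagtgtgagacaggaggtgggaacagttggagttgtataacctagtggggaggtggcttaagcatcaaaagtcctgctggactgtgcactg

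Cyp2b13 promoter: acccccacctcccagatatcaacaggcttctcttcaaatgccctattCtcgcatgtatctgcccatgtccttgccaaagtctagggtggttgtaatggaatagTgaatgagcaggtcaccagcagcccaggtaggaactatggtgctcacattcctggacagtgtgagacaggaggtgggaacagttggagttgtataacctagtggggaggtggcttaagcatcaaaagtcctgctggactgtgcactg

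Both windows hold AGGTCA once, 138 bases before the start.

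Cyp2b10, the gene most often used as a readout of CAR, matches these windows at 72.8% and behaved differently. Its level was 0.38, -4.48, 1.38, -0.46 and -1.63 on KO1 to KO5, against 2.01, 0.37, -0.86, -0.71 and -0.33 on WT1 to WT5. KO2 was far below every other array and WT1 was the highest, so the groups overlapped broadly. The difference was -1.06 ± 1.01 (limma adjusted p = 0.569, exact permutation p = 0.42) and shrank to -0.18 without KO2. On its second probe KO2 read -2.68, again the lowest array. Cyp2b19, a gene of skin, was dim and differed by 0.30 ± 0.49.

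The Cyp3a genes include Cyp3a11, the main drug-metabolising and PXR-inducible P450 of mouse liver. Its level was 6.27, 3.23, 6.67, 6.79 and 5.82 on KO1 to KO5, against 6.56, 6.66, 6.82, 6.94 and 6.76 on WT1 to WT5. KO2 stood 3.16 below the mean of the other KO arrays, 8.92-fold in linear terms, KO5 was the next lowest, and KO3 and KO4 lay within the WT range. The mean was 5.75 ± 1.46 on KO arrays and 6.74 ± 0.15 on WT arrays (SD, n = 5 each), a difference of -0.99 ± 0.59 (limma adjusted p = 0.337, exact permutation p = 0.079). Without KO2 the difference was -0.36 ± 0.19 (limma adjusted p = 0.281). The Cyp3a11 probe spans an intron (chr5:144750340-144752207, mm7, minus strand), which places it in spliced transcript, and is shown in full because 1 array decides the value it gives.

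Cyp3a11 probe: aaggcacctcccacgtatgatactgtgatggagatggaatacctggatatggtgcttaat

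The 4 genes Cyp3a16, Cyp3a25, Cyp3a41a and Cyp3a44 shared KO2 as their lowest array and KO5 as the next lowest. Cyp3a16, expressed most in fetal and female livers, had a level of 5.18, 2.29, 5.36, 5.22 and 4.52 on KO1 to KO5, against 5.46, 5.48, 5.71, 5.82 and 5.72 on WT1 to WT5. It was the one Cyp3a gene with all KO arrays below all WT arrays. Its difference was -1.13 ± 0.52 over all arrays (limma adjusted p = 0.22, exact permutation p = 0.0079) and -0.57 ± 0.17 without KO2 (limma adjusted p = 0.079), so the smaller difference had the smaller p. Cyp3a25 differed by -1.01 ± 0.47, and by -0.53 without KO2. Cyp3a41a and Cyp3a44, better expressed in female livers, differed by -0.89 ± 0.49 and -1.03 ± 0.52, and by -0.36 and -0.48 without KO2. Their probes read 7.185 to 7.518 and 6.065 to 6.513 on WT arrays, on which Y-linked genes were above background. Whether these probes bind transcripts of Cyp3a11 was not tested. On KO2 these 4 genes were 5.34-fold to 6.83-fold below the mean of the other KO arrays. None of the 6 Cyp3a genes passed, and 0 of 6 had an unadjusted p under 0.05.

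**Figure D5:**
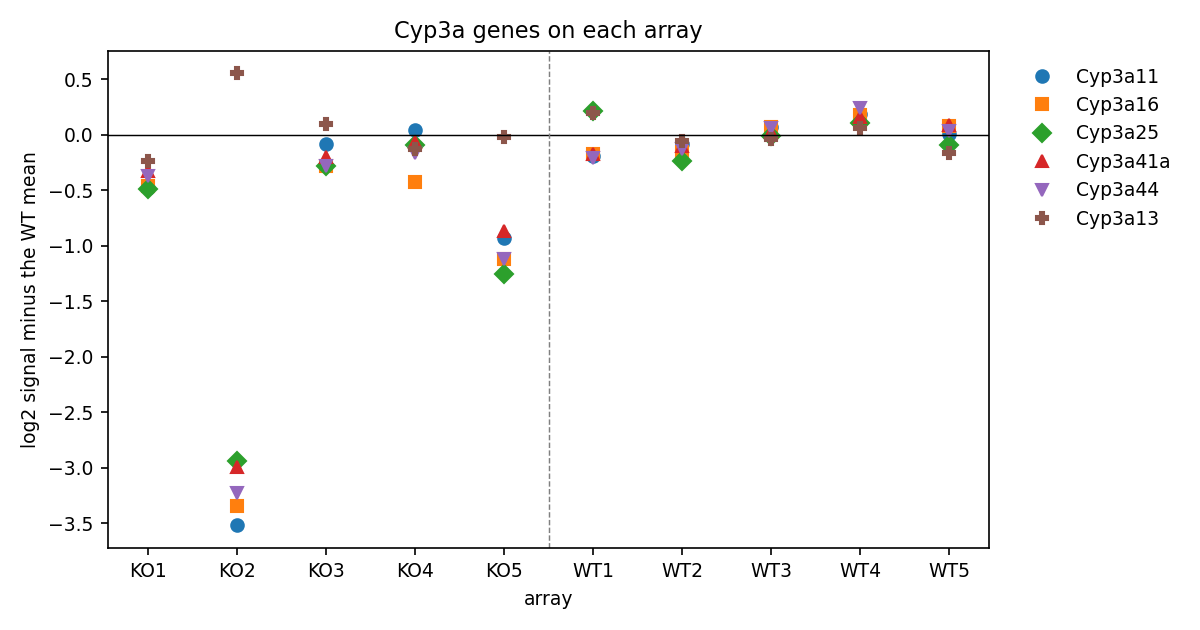
Level of the 6 tested Cyp3a genes on each array, KO arrays left of the dashed line and WT arrays right of it, after subtracting the WT mean of each gene, on the log2 scale. The other 5 genes lie together on KO2, about 3 units below the WT mean, and lie nearer to it on KO5, whereas Cyp3a13 is highest on KO2.

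The files place the probes of Cyp3a41a and Cyp3a44 323 bases apart, start to start, on chromosome 5 (mm7), so the transcripts behind these 2 values cannot be told apart with confidence. Their promoter windows match at 94.4% of bases, as do those of Cyp3a16 and Cyp3a44. Another Cyp3a44 probe was above background on 0 KO arrays and 0 WT arrays and was not kept. Cyp3a13, which lies apart from the others on chromosome 5 and is strongest in the intestine, behaved differently. Its level was 4.28, 5.07, 4.62, 4.39 and 4.502 on KO1 to KO5, against 4.71, 4.46, 4.48, 4.58 and 4.36 on WT1 to WT5. KO2 was the highest array, and the groups overlapped, with a difference of 0.06 ± 0.14 (limma adjusted p = 0.848, exact permutation p = 0.79).

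KO2 was the lowest of the 10 arrays for 22 of the 40 members (55.0%), where it was the lowest for 25.6% of all genes, and the highest for 4 of 40, where it was the highest for 17.4% of all genes. The 22 genes came from 10 subfamilies, and included 5 of 6 Cyp3a, 4 of 5 Cyp2d, 4 of 5 Cyp2j and both Cyp1a genes. The 4 for which KO2 was highest were Cyp2c37, Cyp2c40, Cyp2c70 and Cyp3a13. The marker lists on KO2 are given beside this. The summed level of hepatocyte markers on KO2, 1476, lay below the WT range (1537 to 1761) but above the lowest KO array (1448), that of periportal hepatocyte markers was the lowest of all arrays (348.1, against 556.9 to 678.9 on WT arrays), and those of cholangiocyte markers (21.6, against 5.84 to 9.65 on WT arrays) and stellate cell markers (75.7, against 54.0 to 69.3 on WT arrays) were the highest of the KO arrays. Within the cholangiocyte list Spp1 was highest on KO2, at 4.35, whereas Krt19 and Krt7 were lowest there, at -3.43 and -2.31. Their part in the P450 values was not tested.

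The SD was larger in KO than in WT for 35 of 40 members (87.5%), where it was larger for 78.5% of all genes, and without KO2 for 28 of 40 members (70.0%), near the 67.7% over all genes. The median standard error of the difference was 0.20 over the members and 0.12 over all genes.

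The Cyp1a genes, the targets of the aryl hydrocarbon receptor, did not pass. Cyp1a1, an inducible enzyme that oxidises polycyclic hydrocarbons, was dim, at -2.98, -3.49, -2.20, -2.93 and -2.95 on KO1 to KO5, against -2.49, -2.66, -2.07, -2.63 and -2.27 on WT1 to WT5. It differed by -0.49 ± 0.22 (limma adjusted p = 0.203, exact permutation p = 0.079). Cyp1a2, which clears caffeine and is made constitutively in hepatocytes, had a level of 4.94, 4.23, 5.22, 5.19 and 5.14 on KO1 to KO5, against 4.51, 4.36, 5.07, 5.14 and 4.77 on WT1 to WT5. KO2 was the lowest array and the other KO arrays lay in or above the upper part of the WT range. The difference was 0.17 ± 0.22 (limma adjusted p = 0.674, exact permutation p = 0.47), and 0.35 ± 0.17 without KO2 (limma adjusted p = 0.238). Cyp1b1 was not tested, since it was above background on 2 KO arrays and 2 WT arrays.

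All 5 Cyp2d genes and all 5 Cyp2j genes had a negative difference, where 48.1% of all genes did, and 0 of the 10 passed in the limma fit. At an unadjusted p under 0.05, 1 Cyp2d gene and 3 Cyp2j genes were lower, where 12.1% of all genes were. KO2 was the lowest array for 4 of 5 genes in each subfamily. Without KO2 the difference was 0.15 for Cyp2d13 and 0.005 for Cyp2j6, and the others stayed negative. The Cyp2d differences ran from -0.27 to -0.00 and the Cyp2j differences from -0.31 to -0.18. Cyp2d26 was the Cyp2d gene with the smallest p, at 7.66, 7.61, 7.87, 7.94 and 7.81 on KO1 to KO5, against 8.13, 8.03, 7.91, 8.06 and 8.06 on WT1 to WT5. Only KO4 lay above any WT array, and the difference was -0.26 ± 0.08 (limma adjusted p = 0.0927, exact permutation p = 0.016). Cyp2d9, a steroid hydroxylase better expressed in male livers, had a level of 7.54, 6.82, 7.64, 7.83 and 7.57 on KO1 to KO5, against 7.65, 7.72, 7.60, 7.78 and 7.78 on WT1 to WT5. Its difference of -0.22 ± 0.17 (limma adjusted p = 0.445, exact permutation p = 0.21) was -0.06 without KO2.

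Cyp2j5, an arachidonic acid epoxygenase of liver and kidney, had a level of 5.98, 5.77, 6.00, 5.85 and 6.12 on KO1 to KO5, against 6.10, 6.21, 6.14, 6.27 and 6.25 on WT1 to WT5. Only KO5 reached the WT range, and the difference was -0.25 ± 0.08 (limma adjusted p = 0.0968, exact permutation p = 0.016). A second Cyp2j5 probe gave -0.27 ± 0.08 (limma adjusted p = 0.0851 over all probes).

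Among the subfamilies with a single gene, none passed, and 0 of the 6 genes had an unadjusted p under 0.05. Cyp2e1, the ethanol-inducible enzyme that activates paracetamol, was nearly level over the arrays, at 7.35, 7.47, 7.36, 7.17 and 7.15 on KO1 to KO5, against 7.37, 7.33, 7.33, 7.48 and 7.59 on WT1 to WT5. Its difference was -0.12 ± 0.09 (limma adjusted p = 0.431, exact permutation p = 0.18). Cyp2f2, the naphthalene-oxidising enzyme of periportal hepatocytes and airway, had a level of 7.38, 6.47, 7.69, 7.78 and 7.82 on KO1 to KO5, against 7.36, 7.67, 7.41, 7.76 and 7.60 on WT1 to WT5. KO2 stood below the other arrays, and the difference was -0.13 ± 0.24 over all arrays (limma adjusted p = 0.778, exact permutation p = 0.83) and 0.11 without KO2.

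Cyp2u1, a fatty acid hydroxylase, had a level of 1.06, -0.86, 0.79, 0.92 and 0.78 on KO1 to KO5, against 0.39, 0.82, 0.72, 1.04 and 0.74 on WT1 to WT5. KO2 was again below every other array, and the difference was -0.20 ± 0.33 (limma adjusted p = 0.755, exact permutation p = 0.85), or 0.15 without KO2. Cyp2r1, the vitamin D hydroxylase of the liver, had a level of 1.75, 0.94, 1.32, 1.23 and 1.41 on KO1 to KO5, against 1.27, 1.54, 1.28, 1.41 and 1.32 on WT1 to WT5. KO arrays were both the highest and the lowest, and the difference was -0.03 ± 0.13 (limma adjusted p = 0.904, exact permutation p = 0.81).

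Cyp2g1, a P450 of olfactory mucosa, was dim, at -2.42, -2.12, -0.89, -1.50 and -1.83 on KO1 to KO5, against -3.27, -2.13, -2.13, -2.29 and -2.27 on WT1 to WT5. KO3 was the highest array and WT1 the lowest, with a difference of 0.67 ± 0.31 (limma adjusted p = 0.223, exact permutation p = 0.079). Cyp2s1, an enzyme of epithelia, had a level of -1.98, -2.56, -1.47, -1.98 and -2.25 on KO1 to KO5, against -1.99, -1.87, -2.59, -1.99 and -2.20 on WT1 to WT5. The groups overlapped throughout (0.08 ± 0.20, limma adjusted p = 0.85, exact permutation p = 0.75). Of the Cyp2c genes that were not tested, Cyp2c65 was above background on 3 KO arrays and 3 WT arrays, and Cyp2c66 on 3 KO arrays and 0 WT arrays, 1 array short of the filter.

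Members were also read by what is known to control them, as groups that overlap in their genes. Of 8 genes listed here as CAR or PXR targets, 0 rose and 1 fell (Cyp2a5). Their median was -0.84 over all arrays and -0.30 without KO2. They did not share a direction. At an unadjusted p under 0.05, 2 were higher (Cyp2c29 and Cyp2c37) and 3 lower (Cyp2a5, Cyp2b9 and Cyp2b13), beside the 11.6% and 12.1% of all genes given above. Of 7 genes better expressed in female than male mouse livers, 1 rose (Cyp2c40) and 1 fell (Cyp2a4). In this list 1 was higher and 3 were lower at an unadjusted p under 0.05. The median was -1.03 over all arrays and -0.57 without KO2. The list holds Cyp3a16, Cyp3a41a and Cyp3a44, all lowest on KO2. Whether their probes read separate transcripts, or transcripts of Cyp3a11, was not tested. Of 6 P450 genes of pericentral hepatocytes, 0 rose and 1 fell (Cyp2a5), with a median of 0.03 (2 higher and 1 lower at an unadjusted p under 0.05). Both the CAR and PXR list and the list of female-predominant genes hold Cyp2b9 and Cyp2b13. The CAR and PXR list and the pericentral list both hold Cyp2a5, Cyp2c29, Cyp2c37 and Cyp3a11. The counts and medians of these lists are therefore not separate evidence.

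Of 26 tested receptors and factors linked to the control of P450 genes, 0 rose and 1 fell, where 2.44% and 3.48% of all genes did. The list holds both activators and repressors, and also Nr2c2 itself. At an unadjusted p under 0.05, 1 was higher (Nr2c2) and 6 were lower, where 11.6% and 12.1% of all genes were. The median of the list was -0.11. Ppara, the fatty acid receptor, averaged 3.69 on KO arrays and 4.30 on WT arrays and fell (-0.60 ± 0.15, limma adjusted p = 0.0483), a call that ended without KO3, KO4, KO5 or any 1 of the WT arrays (limma adjusted p up to 0.108). Pgrmc2 and Cyb5b, of the haem and electron supply to P450 enzymes, fell by 0.77 and 0.59 on the log2 scale (limma adjusted p = 0.0128 and 0.021), the 2 of 20 genes of that list that passed, and the call of Cyb5b ended without WT2, WT4 or WT5 (up to 0.0619). The median of that list was -0.22, and 10 of the 20 were lower and 1 higher at an unadjusted p under 0.05, beside the 12.1% and 11.6% of all genes given above. Of 12 tested genes of the growth hormone axis, 1 rose and 0 fell (2 and 1 at an unadjusted p under 0.05). This was Socs2, a feedback inhibitor that growth hormone induces, at 1.48 on KO arrays and -0.73 on WT arrays (2.21 ± 0.50, limma adjusted p = 0.0324), and its call ended without any 1 array other than KO1 and KO4 (limma adjusted p up to 0.0812).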

How the data were processed

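Liver RNA of 5 KO and 5 WT samples was measured on 1-colour arrays. Per the file headers, the authors' program was version 9.5.1.1 of Agilent Feature Extraction (9.5 in the submitters' processing notes), which subtracted the background and removed spatial trends on each array before the intensity values were deposited. The intensity table of the whole series held the same values.

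Log2 of each intensity was taken, without a pseudocount, each array's 75th percentile over non-control probes (950.3 to 1344) was subtracted, outlier spots were set to missing and spots of a probe were averaged. The filter kept 23266 of 41174 probes, those that the program marked as well above background on 4 or more of the 5 arrays in either group. Of all probes, 51.0% to 62.4% were above background per array, and the number of arrays limits the precision. Each gene was represented by its brightest kept probe. Symbols were updated through RefSeq (22951 probes by accession, 6659 by symbol, 3109 by an older symbol, 8455 unchanged). Groups came from the sample titles, and limma 3.58.1 (lmFit, eBayes; R 4.3.3) fitted genotype alone. The fit was tested on simulated data. Probe positions are those of the files (build mm7), and promoter windows are RefSeq's (GRCm38.p6). Exons and untranslated regions were not assigned.

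Members and gene lists were chosen with earlier results of these data known. Values on every array are given for members that passed, the member of each subfamily with the smallest p, a set of well-known enzymes, and the 3 largest differences, and of each list the genes that passed. Other genes are given by difference or count, and genes outside this rule, such as single marker genes on KO2, were picked after their values were seen. Alternatives covered background correction, scaling, the filter, the probe per gene, outlier spots, slide, replicate number, array weights, the series table and leaving out each array.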

Additional observations from a re-analysis of the deposited data

Results flagged for a closer look

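Of 46 groups of 5 arrays over the 23 members given in full, 6 held an array far from the other 4, and 4 of the 6 were on KO2. In these 6 the gap to the nearest other array was 0.717 to 0.857 of the range. Chance gives about 1 in 20 groups when groups are independent. The groups here share the same arrays and are not independent, so no excess over chance is read from the count. On KO2, Cyp1a2 read 4.228 (the other KO arrays 4.937 to 5.218), Cyp2u1 read -0.855 (0.783 to 1.055), Cyp3a11 read 3.227 (5.818 to 6.789) and Cyp3a16 read 2.293 (4.518 to 5.357). On WT4, Cyp2c29 read 6.584, where the other WT arrays read 6.995 to 7.149. On WT1, Cyp2g1 read -3.273, where the other WT arrays read -2.294 to -2.13.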

How the results depend on the processing

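Each of the 23 members given in full was recomputed under 26 alternatives. Neither Cyp2a4 nor Cyp2a5, Cyp2c40 or Cyp2c70 changed direction under any of them, and limma passed them in 23, 22, 17 and 22 of the 26. KO and WT arrays do not overlap for these genes, so leaving out an array or taking slide 2 alone could not change their direction. The series values were the same as those of the main fit, so that alternative only repeats it. With slide as a fixed block, as within slide 2, 0 members rose and 0 fell (3 and 4 at an unadjusted p under 0.05 with the block, 2 and 2 within slide 2), where 38 and 2 of all genes passed. With slide as a random block 4 rose (Cyp2c29 and Cyp2c37 besides the 2) and 3 fell. After normexp scaled to the 75th percentile 0 rose and 0 fell (3 and 15 at an unadjusted p under 0.05), where 93 of all genes passed, and the median of KO4 after that correction was 9.89 against 7.31 to 7.57 on the other arrays. With median scaling 1 rose and 3 fell, the median of all genes shifted by -0.10 and 21.5% of all calls were higher, where 41.2% were. With no scaling between arrays 2 rose and 2 fell, the median of all genes shifted by 0.11 and 66.8% of calls were higher. With no filter on dim probes 1 rose. Leaving out 1 array gave 1 to 2 genes that rose, 1 without WT4 or WT5, and 2 to 3 that fell.

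Over probes, the counts of 3 that rose and 5 that fell, the dim Cyp2b13 probe among them, became 0 and 1 with normexp scaled to the 75th percentile, 0 and 0 with the fixed slide block or within slide 2, 5 and 7 with the random slide block, and 1 and 3 with the replicate block. Arrays with the same replicate number did not deviate together (correlations of -0.21 to 0.04 over 5 numbers, and 0 of 5 KO arrays correlated best with the WT array of its number), and with the replicate block 0 genes rose and 1 fell. Of these 23 members, 6 uncalled ones changed sign, as did 6 of the 17 tested members given by difference (Cyp2b19, Cyp2c23, Cyp2d10, Cyp2d13, Cyp2j6 and Cyp2j11). Cyp2r1 was 0.0488 with normexp and quantile normalisation, 0.0752 with no scaling, 0.0147 with the slide block or within slide 2, and -0.1384 to 0.0632 when 1 array was left out (positive without WT2 or KO2). Cyp3a13 was -0.0489 with normexp at the 75th percentile, -0.0457 with median scaling, -0.0039 with array weights and -0.069 to 0.128 with 1 array left out (negative without KO2). Cyp2s1 was -0.0225 with median scaling and -0.0667 to 0.2073 with 1 array left out (negative without KO3 or WT3). Cyp2f2 was 0.037 with array weights and -0.2318 to 0.1064 with 1 array left out, Cyp2u1 -0.3308 to 0.1467 with 1 array left out (both positive without KO2), and Cyp2e1 0.0043 with normexp and quantile normalisation. The cause was not tested in any of these cases.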
